A study of Mus musculus with 8 samples.

Results

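Collagen chain genes were taken as every gene of the count table whose symbol is Col, digits, the letter a and digits, such as Col1a1. The table of 28901 genes held 43 of them, and the 35 with at least 20 counts summed over the 8 libraries are described here. Of these 35, 30 passed the filter on low counts and were tested. The cells were MC3T3-E1, a mouse line of pre-osteoblasts from skull bone that lays down a collagen matrix in culture and can be differentiated into osteoblasts. RNA sequencing gave 2 libraries for each of 4 groups, which the sample titles call control, Brd, NM-DMSO and NM-Brdi.

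The study used I-BRD9 at 10 µM, or its vehicle DMSO. I-BRD9 blocks the bromodomain of BRD9, a subunit of a chromatin remodelling complex. It also used an osteogenic medium with ascorbic acid at 0.25 mM, a glycerol phosphate at 10 mM and dexamethasone at 0.1 µM. Ascorbic acid is a cofactor of the prolyl hydroxylases that act on collagen. The labels assign that medium to no library, and they do not explain Brd, control or NM, so titles serve as group names. All 4 groups are of 1 cell line. The labels do not tie libraries to cultures, so p-values reflect a spread between libraries that may be technical.

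Collagens are made of α chains that wind 3 by 3 into a triple helix. Fibrillar collagens I, II, III, V, XI, XXIV and XXVII assemble into or with fibrils, and collagen I is the main protein of bone matrix. The FACIT collagens, which have interrupted triple helices, sit on the surface of fibrils. Collagen IV forms the sheet of basement membranes, collagen VIII a hexagonal lattice and collagen VI beaded filaments around cells. Collagens XVII and XXIII span the cell membrane, and the multiplexins XV and XVIII are found in basement membrane zones. Some of these proteins need more than 1 gene. Collagen I joins chains of Col1a1 and Col1a2, and collagen VI joins chains of Col6a1, Col6a2 and Col6a3.

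The libraries held 16918182 to 24555028 counts each. Levels are given in CPM, a unit that puts libraries on 1 size with TMM factors. A level of 1 CPM equals 16.4 to 26.1 counts. The libraries of NM-DMSO lay apart. Of 10954 genes with a mean of at least 10 CPM, 590 were over 2-fold apart between the NM-DMSO libraries, against 4 between those of NM-Brdi, 0 in control and 0 in Brd. None of the 21 chains among these genes was, but their median gap was 0.26 on the log2 scale in NM-DMSO and 0.03 to 0.08 in the other groups. Processed pseudogenes held 14.8% to 15.2% of the counts in Brd and control, 21.2% and 18% in NM-DMSO, and 17.3% and 17.4% in NM-Brdi. The 9 osteoblast markers, among them Runx2, Sp7 and Ibsp, were all tested. They summed to 3574 and 3564 CPM in control, 1109 and 1285 CPM in Brd, 1374 and 1246 CPM in NM-DMSO, and 535 and 666 CPM in NM-Brdi. Ibsp held the largest share of the control sum, with 1913 and 1943 CPM in control, 429 and 547 CPM in Brd, 155 and 142 CPM in NM-DMSO, and 2.49 and 6.63 CPM in NM-Brdi. Bglap and Dmp1 were highest in NM-DMSO (8.73 and 6.01 CPM, 2.03 and 4.19 CPM), and Phex was close in Brd (2.62 and 2.53 CPM) and control (2.31 and 2.50 CPM). Endothelial and epithelial markers stayed at or under 0.695 CPM in sum in every library.

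The stretches just upstream of the RefSeq start are shown for 4 chains on which the results below turn (250 bases, GRCm38.p6, 5′ to 3′ on the gene's strand). Col3a1 (chr1:45311288-45311537, + strand) and Col16a1 (chr4:130047590-130047839, + strand) are the chains lower in both Brd and NM-Brdi. Col5a1 (chr2:27886175-27886424, + strand) and Col11a2 (chr17:34038888-34039137, + strand) are fibrillar chains higher in Brd. Capitals mark matches, on either strand, to TATAAA of the TATA box, CCAAT of the CCAAT box, GGGCGG of the GC box or TGTGGT, the core of the site that RUNX factors bind.
Col3a1: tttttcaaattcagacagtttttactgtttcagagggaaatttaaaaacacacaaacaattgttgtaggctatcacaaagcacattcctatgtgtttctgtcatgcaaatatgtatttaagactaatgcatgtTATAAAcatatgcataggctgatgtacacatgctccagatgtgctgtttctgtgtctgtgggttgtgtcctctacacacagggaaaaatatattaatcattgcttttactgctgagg
Col16a1: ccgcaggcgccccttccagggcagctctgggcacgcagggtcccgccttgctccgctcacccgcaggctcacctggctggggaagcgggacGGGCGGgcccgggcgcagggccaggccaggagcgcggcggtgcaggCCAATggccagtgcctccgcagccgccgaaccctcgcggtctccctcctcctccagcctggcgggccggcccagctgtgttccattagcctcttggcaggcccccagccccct
Col5a1: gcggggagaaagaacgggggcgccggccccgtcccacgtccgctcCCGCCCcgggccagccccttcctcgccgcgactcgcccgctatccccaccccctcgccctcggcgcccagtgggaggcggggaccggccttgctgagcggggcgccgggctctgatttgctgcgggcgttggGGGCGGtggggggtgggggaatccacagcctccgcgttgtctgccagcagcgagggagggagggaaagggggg
Col11a2: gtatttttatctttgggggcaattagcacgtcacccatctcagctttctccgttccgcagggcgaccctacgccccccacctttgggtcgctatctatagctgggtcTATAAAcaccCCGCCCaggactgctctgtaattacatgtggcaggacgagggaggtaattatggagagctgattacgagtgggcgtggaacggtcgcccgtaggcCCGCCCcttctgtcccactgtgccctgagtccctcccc

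These windows differ in make-up as well as in matches. Col3a1 had 35.2% G and C and 1 match to TATAAA, while Col16a1 had 75.6% G and C with 1 match each to CCAAT and GGGCGG. The Col5a1 window had 76.4% G and C and 2 matches to GGGCGG, and that of Col11a2 57.6%, with 1 match to TATAAA and 2 to GGGCGG. The median over all windows was 52.4% G and C. RefSeq windows were found for 29 of the 35 chains, 31 windows in all. Of these 31, 20 (64.5%) held GGGCGG, against 32.7% of all 32851 promoter windows. CCAAT was in 11 (35.5% against 33.8%), TATAAA in 3 (9.68% against 12.4%) and TGTGGT in 3 (9.68% against 14%). These shares were not matched for G and C content, which ran from 35.2% to 76.4% in the chain windows. Some windows lie partly or wholly in annotated untranslated regions, as all 250 bases of the Col4a1 window do. The matches are a description of these letters in these windows.

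**Figure D1:**
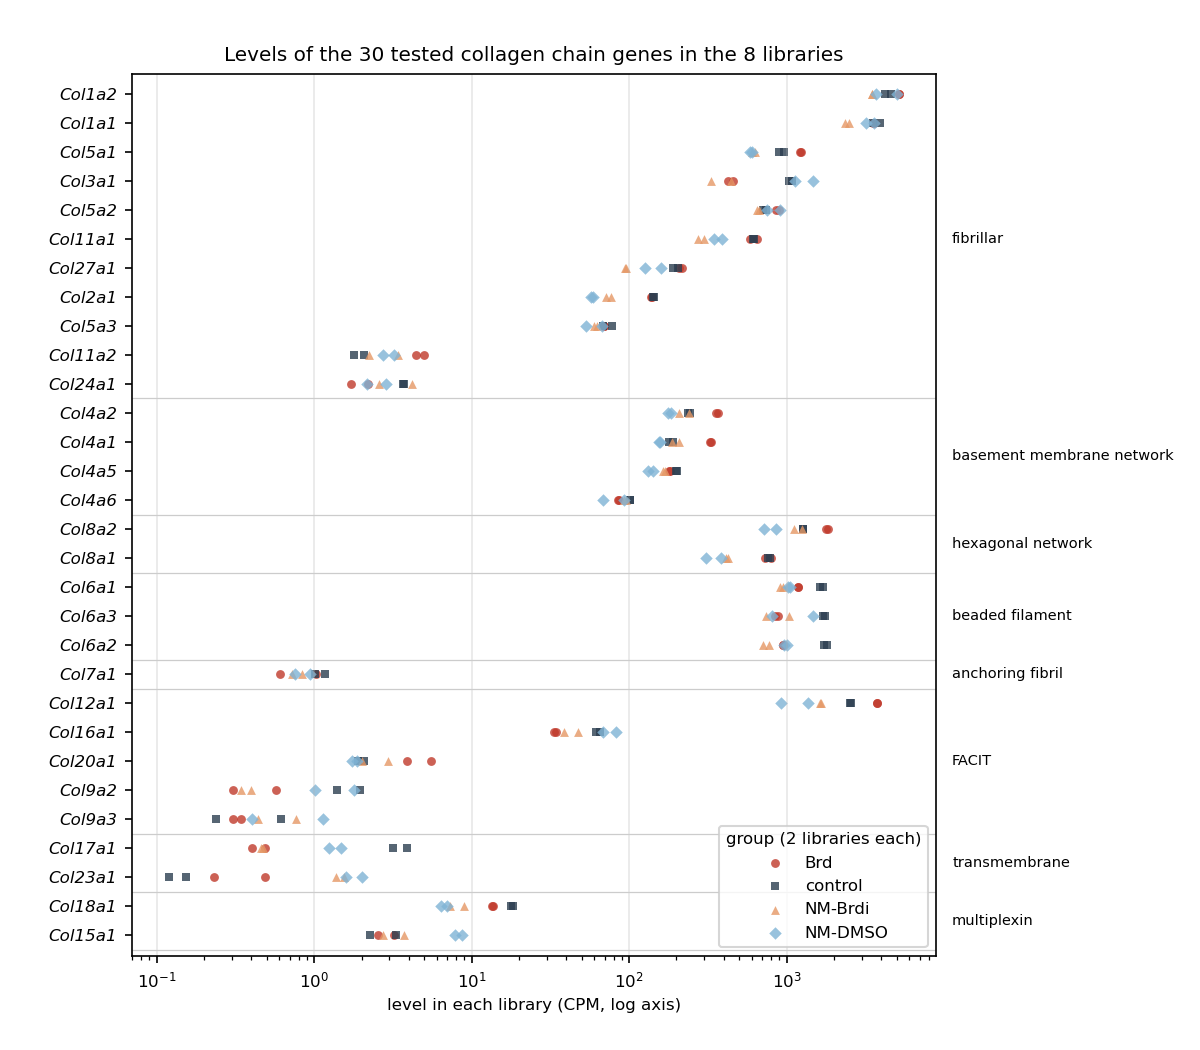
Level of each of the 30 tested collagen chain genes in the 8 libraries (CPM, log axis), grouped by collagen class. Each point is 1 library and each colour and shape 1 group of 2 libraries. Levels on this axis are not divided by gene length, so chains can be compared across libraries but not with each other. Col3a1 separates Brd and NM-Brdi from control and NM-DMSO, and Col12a1 is highest in Brd and lowest in NM-DMSO.

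Divided by the length of the longest transcript, Col1a2 and Col1a1 stood first and second of the chains in control at 826 and 629 CPM per kb. Col6a1 (407 CPM per kb), Col6a2 (359), Col8a2 (292), Col12a1 (222) and Col3a1 (191) came next. With the union of all exons as the length, Col1a1 led at 568 CPM per kb, ahead of Col6a1 at 381 and Col1a2 at 355. The order of the collagen I chains thus depended on the length, since the exons of Col1a2 span 12426 nt in union and 5348 nt in the longest transcript, while those of Col1a1 span 6563 and 5930 nt. At least 10 CPM per kb in control was reached by 19 chains with the union and 20 with the longest transcript. Among the 19 chains of the union order, the neighbours Col5a1 and Col3a1 overlapped between control libraries (106 to 113 and 105 to 111 CPM per kb), as did Col2a1 and Col27a1 (15.3 to 15.5 and 14.7 to 15.8). The libraries of the other neighbours in that order did not overlap.

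Collagen chains took a similar share of all counts in control (2.14% and 2.24%) and Brd (2.19% and 2.20%) and a smaller one in NM-DMSO (1.69% and 1.74%) and NM-Brdi (1.53% and 1.59%). The make-up of that share differed more than its size. Per kb of longest transcript, collagen VI made up 15.3% of the chain counts in both Brd libraries and 25.2% and 24.9% in the control libraries. Its share overlapped between NM-Brdi (18.1% and 19.7%) and NM-DMSO (17.3% and 21.6%). Col3a1 made up 2.09% and 2.22% in Brd against 5.09% in both control libraries, and 2.46% and 3.18% in NM-Brdi against 8.71% and 7.25% in NM-DMSO. The FACIT class, nearly all of it Col12a1, went the other way, with 6.38% and 6.17% in control, 9.13% and 9.01% in Brd, 3.22% and 4.76% in NM-DMSO, and 6.15% and 6.21% in NM-Brdi. The hexagonal class of Col8a1 and Col8a2 was at 12.2% and 11.5% in control, 15.0% and 15.6% in Brd, 7.46% and 9.74% in NM-DMSO, and 15.2% and 13.7% in NM-Brdi. Collagen I made up 38.1% to 43.2% outside NM-DMSO, and 50.7% and 43.9% in NM-DMSO. In bulk libraries such as these, fewer cells of a type and less RNA per cell cannot be told apart.

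**Figure D2:**
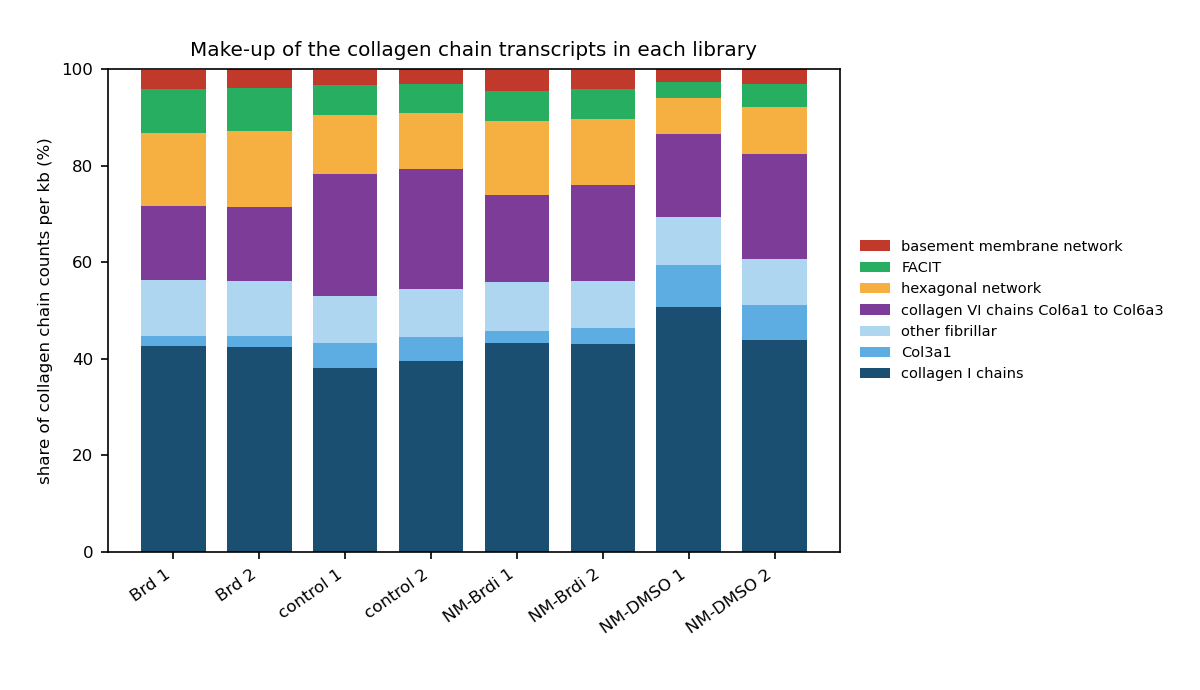
Share of the collagen chain counts, per kb of longest transcript, that each class takes in each of the 8 libraries (bars, in percent). The collagen VI band is widest in control (25.2% and 24.9%) and the Col3a1 band in NM-DMSO (8.71% and 7.25%).

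A chain was called when its Benjamini-Hochberg adjusted p over all 17038 tested genes, from edgeR's quasi-likelihood test, was under 0.05. Fold changes are fitted log2 ratios with a standard error (SE). Between Brd and control 11 of the 30 tested chains were called, where 6.58% of all tested genes were. The chains Col4a1, Col4a2, Col5a1, Col8a2, Col11a2 and Col20a1 were higher in Brd, and Col3a1, Col6a1, Col6a2, Col16a1 and Col17a1 lower. These are 6 higher, where 3.13% of all genes were called higher, and 5 lower, where 3.45% were. The median log2 fold change of the tested chains was -0.05, against 0.00 over all genes, so the changes ran both ways. The libraries of Brd and control did not overlap for 23 of the 30 chains and for 66.1% of all tested genes. The calls of the 11 chains did not hold by edgeR when any 1 of the Brd or control libraries was left out. Most calls over all genes were lost in these fits as well, and the 11 log2 fold changes kept their sign. DESeq2 on all 8 libraries called 13 chains and 1340 genes, where edgeR called 1121 genes. Without an NM-DMSO library 20 chains were called, and the calls over all genes went from 1121 to 5539 and 5499. Without an NM-Brdi library there were 587 and 594 calls over all genes and 6 chains, namely Col3a1, Col4a1, Col4a2, Col6a2, Col16a1 and Col17a1.

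Between NM-Brdi and NM-DMSO 3 of the 30 chains were called, all lower in NM-Brdi, where 1.87% of all tested genes were called, 0.816% higher and 1.05% lower. They were Col3a1, Col15a1 and Col16a1. The median was -0.14, against -0.00 over all genes, and the libraries did not overlap for 23 of the 30 chains and 47.6% of all genes. The pairs share no library, but both used the estimate of the spread from all 8 libraries. The overlap of calls between the pairs was not counted over all genes. Col3a1 and Col16a1 were called in both, 18.2% of the 11 and 66.7% of the 3, in the same direction. Left-out libraries changed this count to between 0 and 20. Only the call of Col3a1 held without a Brd, a control or the second NM-Brdi library, and it too was lost by edgeR without NM-Brdi replicate 1. DESeq2 called 7 chains in this pair, the same 3 with Col1a1, Col6a2 and Col27a1 lower and Col8a2 higher. These 4 were also called by edgeR without either NM-DMSO library, in fits that called 2491 and 9577 of all genes.

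The interaction, which tests whether the change from control to Brd differs from that from NM-DMSO to NM-Brdi, called 0 of the 30 chains by edgeR and 0 by DESeq2. Of all tested genes 0.0411% were called. At an unadjusted p under 0.05 there were 16 chains and 1580 of the 17038 tested genes. The interaction of the tested chains ran from -1.44 for Col17a1 to 1.63 for Col23a1, with a median of -0.04 against 0.03 over all genes. The chains called in 1 pair alone are thus not shown to differ between the pairs. Without NM-DMSO replicate 1 there were 13 chains and 1589 genes called, and without replicate 2 there were 22 and 7458.

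**Figure D3:**
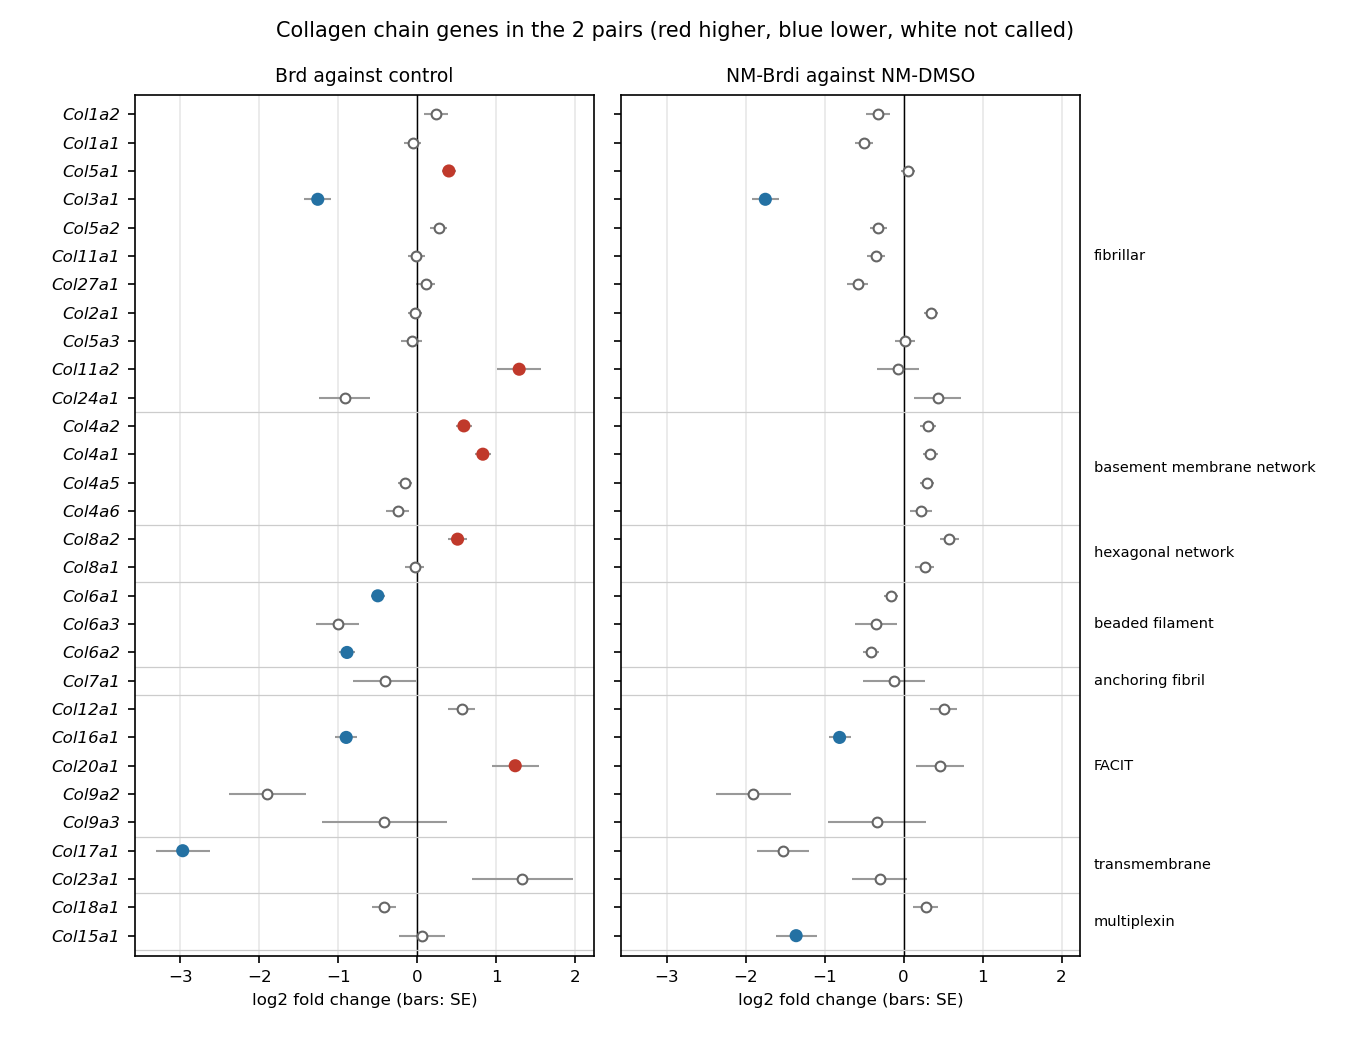
Log2 fold change (x axis, both panels on the same scale) of the 30 tested chains in Brd against control and NM-Brdi against NM-DMSO. Points are fitted values from 2 libraries a group and bars the SE, with red points called higher, blue points called lower and white points not called. Col3a1 and Col16a1 are blue in both panels.

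Of the fibrillar chains, Col3a1 fell in both pairs. Col3a1 (chromosome 1, 45311538 to 45349706, + strand, GRCm38), which encodes the chain of collagen III found beside collagen I in soft connective tissue and early repair, stood at 1033 and 1089 CPM in control, 428 and 460 CPM in Brd, 1473 and 1133 CPM in NM-DMSO, and 332 and 441 CPM in NM-Brdi. All libraries of Brd and NM-Brdi lay below all libraries of control and NM-DMSO. It was 2.39-fold lower in Brd than in control (log2 fold change -1.26, SE 0.17, adjusted p = 0.00762). In NM-Brdi it was 3.37-fold lower than in NM-DMSO (-1.75, SE 0.17, adjusted p = 0.00763). In the 4 libraries of this NM pair alone, where no gene was called, Col3a1 lost its call. Its neighbour on chromosome 1, Col5a2 (45374321 to 45503282, - strand), lay at 713 and 745 CPM in control, 892 and 861 CPM in Brd, 905 and 750 CPM in NM-DMSO, and 653 and 668 CPM in NM-Brdi. Col5a2, a chain of collagen V, was not called in either pair (0.27, adjusted p = 0.239 and -0.32, adjusted p = 0.172). Its libraries did not overlap in either pair, and the 4 libraries of Brd and control alone called it higher in Brd.

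The collagen I chains moved less. Col1a1 (chromosome 11, 94936224 to 94953042, + strand) had 3551 and 3911 CPM in control, 3557 and 3609 CPM in Brd, 3594 and 3204 CPM in NM-DMSO, and 2340 and 2479 CPM in NM-Brdi. Col1a2 (chromosome 6, 4504814 to 4541544, + strand) had 4223 and 4609 CPM in control, 5189 and 5213 CPM in Brd, 4994 and 3708 CPM in NM-DMSO, and 3493 and 3500 CPM in NM-Brdi. NM-Brdi was the lowest group for both genes. Brd overlapped control for Col1a1 but not for Col1a2, which was called higher in Brd in the 4 libraries of this pair alone. Between Brd and control the log2 fold change was -0.06 (SE 0.11, adjusted p = 0.867) for Col1a1 and 0.24 (SE 0.15, adjusted p = 0.441) for Col1a2. In NM-Brdi against NM-DMSO it was -0.50 (SE 0.11, adjusted p = 0.0701) and -0.32 (SE 0.15, adjusted p = 0.254). Col1a1 was called lower in this pair by DESeq2 and without either NM-DMSO library.

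Col5a1, which encodes the chain of collagen V that limits the width of collagen I fibrils, rose in Brd. It had 897 and 959 CPM in control, 1241 and 1210 CPM in Brd, 585 and 600 CPM in NM-DMSO, and 634 and 603 CPM in NM-Brdi. Every Brd library was above every control library, and both were above the NM libraries. Col5a1 had a fitted log2 ratio of 0.40 in Brd against control (SE 0.09, adjusted p = 0.0453) and 0.06 in NM-Brdi against NM-DMSO (SE 0.09, adjusted p = 0.701). Col5a1 (chromosome 2, 27886425 to 28039514) overlaps 2810430I11Rik and Gm13372 on the other strand over 99 and 113 nt, and these had 644 and 551 counts in all against its 131913.

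Col11a2, a chain of collagen XI, was at 2.06 and 1.79 CPM in control, 5.00 and 4.43 CPM in Brd, 3.23 and 2.72 CPM in NM-DMSO, and 3.41 and 2.22 CPM in NM-Brdi. The Brd libraries were the highest of the 8 and the control libraries the lowest. Relative to control, Brd was 2.44-fold higher (1.29, SE 0.28, adjusted p = 0.0388), while NM-Brdi and NM-DMSO overlapped (-0.07, adjusted p = 0.885). Col11a1 encodes another chain of collagen XI. This gene had 616 and 622 CPM in control and 585 and 646 CPM in Brd. In NM-DMSO it had 387 and 346 CPM, and in NM-Brdi 276 and 298 CPM. It split by the prefix NM, while Brd and control overlapped (-0.01, adjusted p = 0.988). In the NM pair it was lower in NM-Brdi without overlap, but not called (-0.35, adjusted p = 0.145).

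Col2a1, the chain of the cartilage collagen II, lay at 141 and 143 CPM in control, 137 and 140 CPM in Brd, 58.7 and 57.5 CPM in NM-DMSO, and 76.4 and 71.2 CPM in NM-Brdi. Its levels within a group differed by little, and the groups differed with the prefix. Its fitted log2 ratio was -0.03 in Brd against control (SE 0.09, adjusted p = 0.913) and 0.35 in NM-Brdi against NM-DMSO (SE 0.09, adjusted p = 0.112). Col27a1, a fibrillar chain of cartilage, had 191 and 205 CPM in control, 218 and 209 CPM in Brd, 159 and 126 CPM in NM-DMSO, and 94.3 and 96.1 CPM in NM-Brdi. It was not called in either pair (0.11, adjusted p = 0.735 and -0.58, adjusted p = 0.0667). The 7 chondrocyte markers in the table summed to 411 and 387 CPM in control, 172 and 185 CPM in Brd, 205 and 157 CPM in NM-DMSO, and 146 and 154 CPM in NM-Brdi. Sox9 gave 128 to 188 CPM in every library, and Hapln1 gave 210 and 197 CPM in control, 36.7 and 40.6 CPM in Brd, 9.33 and 11 CPM in NM-DMSO, and 1.92 and 2.50 CPM in NM-Brdi. Matn3 lay at 4.32 to 11.8 CPM, Comp at 0.728 to 2.83 and Cnmd at 0 to 4.35. The cartilage matrix genes Acan and Matn1 had at most 2 counts in any library. The part of these genes in the levels of Col2a1 was not tested.

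The basement membrane chains Col4a1 and Col4a2, which form the collagen IV trimer of most tissues, rose in Brd. Col4a1 had 179 and 191 CPM in control, 329 and 328 CPM in Brd, 158 and 154 CPM in NM-DMSO, and 207 and 186 CPM in NM-Brdi. Col4a2 had 238 and 242 CPM in control, 367 and 358 CPM in Brd, 177 and 184 CPM in NM-DMSO, and 239 and 208 CPM in NM-Brdi. For both, the Brd libraries were well above the other 6, and NM-DMSO was the lowest group. The log2 fold change in Brd against control was 0.83 for Col4a1 (SE 0.10, adjusted p = 0.0045) and 0.59 for Col4a2 (SE 0.10, adjusted p = 0.0153). In NM-Brdi against NM-DMSO it was 0.34 (adjusted p = 0.135) and 0.31 (adjusted p = 0.16). These genes lie head to head on chromosome 8, where Col4a1 runs from 11312826 down to 11198423 and Col4a2 from 11312805 up to 11449287, so that their first exons share 22 nt.

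The chains Col4a5 and Col4a6, also head to head, on the X chromosome, were not called in either pair. Col4a5 lay at 200 and 202 CPM in control, 182 and 179 CPM in Brd, 131 and 141 CPM in NM-DMSO, and 169 and 165 CPM in NM-Brdi. It was highest in control and lowest in NM-DMSO, with a log2 fold change of -0.16 in Brd against control (adjusted p = 0.407) and 0.30 in NM-Brdi against NM-DMSO (adjusted p = 0.149). Col4a6 was between 68.7 and 102 CPM in all libraries (-0.25, adjusted p = 0.392 and 0.22, adjusted p = 0.392). Col4a3 and Col4a4, the remaining collagen IV chains, had 21 counts each over the 8 libraries and could not be tested. Exons of Col4a3 overlap those of C430014B12Rik, so its counts are uncertain.

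The collagen VI chains fell in Brd as far as they were called. Col6a1 (chromosome 10, 76708792 to 76726168) had 1636 and 1704 CPM in control, 1175 and 1189 CPM in Brd, 1023 and 1053 CPM in NM-DMSO, and 909 and 945 CPM in NM-Brdi. Its neighbour Col6a2 (76595762 to 76623630) had 1725 and 1801 CPM in control, 955 and 946 CPM in Brd, 961 and 1005 CPM in NM-DMSO, and 707 and 775 CPM in NM-Brdi. Control was the highest group for both genes and NM-Brdi the lowest. Both fell in Brd against control, Col6a1 by a log2 value of -0.50 (SE 0.09, adjusted p = 0.0194) and Col6a2 with -0.89 (SE 0.10, adjusted p = 0.00355). In the NM pair the values were -0.16 (adjusted p = 0.32) and -0.41 (adjusted p = 0.0852).

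Col6a3 (chromosome 1, 90765923 to 90843971), the longest of the 3 chains of this trimer, had 1703 and 1762 CPM in control, 841 and 877 CPM in Brd, 805 and 1468 CPM in NM-DMSO, and 746 and 1034 CPM in NM-Brdi. Brd was far below control, but the NM libraries were spread within their groups and overlapped. The log2 fold change was -1.01 in Brd against control (SE 0.27, adjusted p = 0.0699) and -0.35 in NM-Brdi against NM-DMSO (SE 0.27, adjusted p = 0.449). It was called lower in Brd by DESeq2, in the 4 libraries of the pair alone and without either NM-DMSO library. Col6a4 and Col6a5 had 41 and 29 counts in all and were not tested, and Col6a5 shares 572 nt at 96.9% identity with Col6a6.

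The hexagonal chains Col8a1 and Col8a2, which make the lattice of Descemet's membrane in the eye and are also made by vessel wall cells, were called differently in Brd, and that difference was not tested. Col8a2 (chromosome 4, 126286793 to 126314330) was at 1264 and 1264 CPM in control, 1776 and 1835 CPM in Brd, 719 and 863 CPM in NM-DMSO, and 1250 and 1121 CPM in NM-Brdi. Col8a1 (chromosome 16, 57624258 to 57754737) was at 791 and 767 CPM in control, 731 and 796 CPM in Brd, 310 and 381 CPM in NM-DMSO, and 410 and 426 CPM in NM-Brdi. Col8a2 was higher in Brd than in control without overlap, whereas Col8a1 overlapped. The log2 fold change of Col8a2 was 0.51 (SE 0.12, adjusted p = 0.0438), and Col8a1 was at -0.03 (SE 0.12, adjusted p = 0.949). In the NM pair Col8a2 was at 0.58 (SE 0.12, adjusted p = 0.0578) and Col8a1 at 0.27 (adjusted p = 0.235). Smooth muscle markers, of which Acta2 gave nearly all counts, summed to 885 and 925 CPM in control, 1402 and 1360 CPM in Brd, 1215 and 834 CPM in NM-DMSO, and 840 and 802 CPM in NM-Brdi. Their part in these results was not tested. Col10a1, the collagen of hypertrophic cartilage, had 17 counts in all libraries together, with 2 and 1 in the control libraries, 4 and 2 in Brd, 0 and 2 in NM-DMSO, and 2 and 4 in NM-Brdi.

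Among the FACIT chains, Col16a1 fell in both pairs. Col16a1 (chromosome 4, 130047840 to 130099283) was at 61.4 and 65.0 CPM in control, 34.5 and 33.2 CPM in Brd, 82.7 and 68.3 CPM in NM-DMSO, and 38.5 and 47.7 CPM in NM-Brdi. As for Col3a1, every library of Brd and NM-Brdi was below every library of control and NM-DMSO. The log2 fold change was -0.90 in Brd against control (SE 0.14, adjusted p = 0.0124) and -0.81 in NM-Brdi against NM-DMSO (SE 0.14, adjusted p = 0.0394). The second call was lost without any 1 of the 6 libraries outside NM-DMSO, and in the libraries of the pair alone.

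Col12a1 (chromosome 9, 79598991 to 79718831), whose product decorates collagen I fibrils and bears load in tendon and bone, was at 2532 and 2576 CPM in control, 3775 and 3772 CPM in Brd, 927 and 1378 CPM in NM-DMSO, and 1620 and 1666 CPM in NM-Brdi. The groups were ordered without overlap, Brd highest and NM-DMSO lowest. Neither pair was called (0.56, SE 0.17, adjusted p = 0.105 and 0.51, SE 0.17, adjusted p = 0.165), although DESeq2, the 4 libraries of the pair alone and the fits without an NM-DMSO library called Brd against control. Col20a1 had 1.90 and 2.08 CPM in control, 3.91 and 5.52 CPM in Brd, 1.74 and 1.87 CPM in NM-DMSO, and 2.95 and 2.02 CPM in NM-Brdi. Relative to control, Brd was 2.36-fold higher (1.24, SE 0.30, adjusted p = 0.0498), with both Brd libraries above the other 6.

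Col17a1, the transmembrane collagen of epithelial hemidesmosomes, had the largest fold change between Brd and control of the tested chains. It lay at 3.19 and 3.87 CPM in control, 0.488 and 0.402 CPM in Brd, 1.49 and 1.25 CPM in NM-DMSO, and 0.460 and 0.476 CPM in NM-Brdi, which is 62 and 65, 8 and 7, 30 and 28, and 12 and 12 counts. Control was highest, and Brd and NM-Brdi were lowest and overlapped. It was 7.84-fold lower in Brd than in control (-2.97, SE 0.34, adjusted p = 0.00412), and the NM pair was at -1.53 (SE 0.33, adjusted p = 0.0702). Of the 5 epithelial markers, Epcam and Krt8 had at most 2 counts in any library, Krt14 at most 8, Cdh1 at most 9 and Krt18 at most 11. In control Cdh1 had 0 and 7 counts, Krt14 7 and 0, and Krt18 0 and 0. Col23a1, the other transmembrane chain tested, had 0.154 and 0.119 CPM in control, 0.488 and 0.230 CPM in Brd, 1.59 and 2.00 CPM in NM-DMSO, and 1.38 and 1.55 CPM in NM-Brdi. It was not called in either pair (1.33, adjusted p = 0.302 and -0.30, adjusted p = 0.626).

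Of the multiplexins, Col15a1 fell in NM-Brdi. It had 2.26 and 3.33 CPM in control, 2.56 and 3.22 CPM in Brd, 7.84 and 8.69 CPM in NM-DMSO, and 2.72 and 3.73 CPM in NM-Brdi. NM-DMSO alone stood high, and the other 3 groups overlapped. The log2 fold change was -1.36 in NM-Brdi against NM-DMSO (SE 0.26, adjusted p = 0.049) and 0.06 in Brd against control (SE 0.29, adjusted p = 0.962). The call was lost without any 1 of the 6 libraries outside NM-DMSO. RLE factors in place of TMM factors also ended this call, as did the 4 libraries of the pair alone. Col18a1, the precursor of endostatin, had 18.3 and 17.8 CPM in control, 13.4 and 13.6 CPM in Brd, 6.35 and 6.99 CPM in NM-DMSO, and 7.24 and 8.97 CPM in NM-Brdi. It was not called in either pair (-0.42, adjusted p = 0.165 and 0.28, adjusted p = 0.329).

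The 6 other tested chains, Col4a6, Col5a3, Col7a1, Col9a2, Col9a3 and Col24a1, had log2 fold changes of -1.90 to -0.07 in Brd against control and of -1.90 to 0.43 in the NM pair. In each pair 0 of them were called by edgeR and 0 by DESeq2. At an unadjusted p under 0.05 by edgeR there were 2 and 1, where 3444 and 3684 of the 17038 tested genes were. Col9a3 shares 234 nt of exon with Tcfl5, so its counts are uncertain. Col9a2, a chain of the cartilage FACIT collagen IX, is singled out here after its values were seen. It had 1.39 and 1.97 CPM in control, 0.305 and 0.575 CPM in Brd, 1.79 and 1.02 CPM in NM-DMSO, and 0.345 and 0.397 CPM in NM-Brdi. The groups of each pair did not overlap, and the log2 fold change was -1.90 in both (adjusted p = 0.0659 and 0.1). The 5 untested chains Col4a3, Col4a4, Col6a4, Col6a5 and Col28a1 had at most 0.72 CPM in any library. Just outside the minimum of 20 counts lay Col10a1 with 17 and Col22a1 with 12, and Col14a1, Col6a6, Col26a1, Col19a1, Col25a1 and Col9a1 had 1 to 9 counts.

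Ratios of chains within a library do not depend on the scaling between libraries, and they are read here across libraries only, without a test, since 2 against 2 libraries cannot reach 0.05 in an exact permutation test. The counts of Col3a1 over those of Col1a1 were 0.291 and 0.278 in control, 0.120 and 0.127 in Brd, 0.410 and 0.354 in NM-DMSO, and 0.142 and 0.178 in NM-Brdi. Both pairs separated, with the lower ratio in Brd and NM-Brdi. The ratio of Col12a1 to Col1a1 was 0.713 and 0.659 in control, 1.06 and 1.05 in Brd, 0.258 and 0.430 in NM-DMSO, and 0.692 and 0.672 in NM-Brdi. Here Brd was highest, control and NM-Brdi overlapped, and NM-DMSO was lowest.

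Partner chains of 1 collagen also differed in ratio between groups. Col1a1 over Col1a2 was 0.685 and 0.692 in Brd and 0.841 and 0.849 in control, with 0.720 and 0.864 in NM-DMSO against 0.670 and 0.708 in NM-Brdi. Col6a1 over Col6a2 was 0.949 and 0.946 in control, 1.23 and 1.26 in Brd, 1.06 and 1.05 in NM-DMSO, and 1.29 and 1.22 in NM-Brdi. The collagen I ratio was lower and this collagen VI ratio higher in Brd and NM-Brdi than in their partner groups, without overlap. The other collagen VI ratio, Col6a3 over Col6a2, was lower in Brd (0.881 and 0.927) than in control (0.987 and 0.978). It overlapped between NM-DMSO (0.838 and 1.46) and NM-Brdi (1.06 and 1.33). Col8a2 over Col8a1 was 1.60 and 1.65 in control, 2.43 and 2.31 in Brd, 2.32 and 2.26 in NM-DMSO, and 3.04 and 2.63 in NM-Brdi. Col4a1 over Col4a2 kept a narrower range, with 0.749 and 0.788 in control, 0.897 and 0.915 in Brd, 0.890 and 0.837 in NM-DMSO, and 0.868 and 0.896 in NM-Brdi. Col5a1 over Col5a2 followed the prefix, with 1.26 and 1.29 in control, 1.39 and 1.40 in Brd, 0.646 and 0.8 in NM-DMSO, and 0.971 and 0.902 in NM-Brdi.

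**Figure D4:**
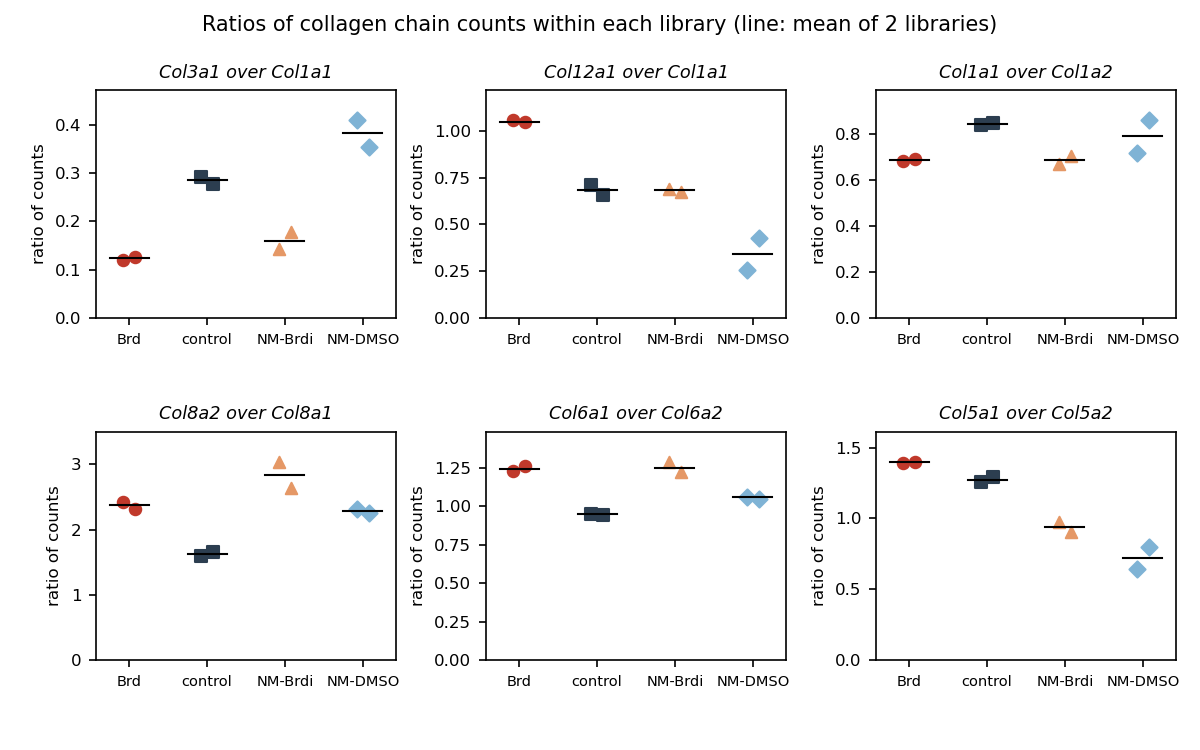
Ratio of the counts of a collagen chain to those of another within each library, for 6 pairs of chains. Points are libraries, 2 for each of the 4 groups, the line is their mean, and every y axis starts at 0. Col3a1 over Col1a1 is 0.120 to 0.178 in Brd and NM-Brdi and 0.278 to 0.410 in control and NM-DMSO.

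Groups without the prefix NM were also compared with their counterparts that carry it. Each of these comparisons shares its libraries with the pairs above, and what the prefix stands for, a batch and the culture cannot be told apart. Between control and NM-DMSO 15 of the 30 chains were called, 13 higher and 2 lower in control, where 23.4% of all tested genes were called, 12% higher and 11.5% lower. The median was 0.39 against -0.02 over all genes, and the libraries did not overlap for 26 chains and 68.2% of all genes. Between Brd and NM-Brdi 14 chains were called, 13 higher and 1 lower in Brd, where 10.5% of all genes were called, 6.73% higher and 3.77% lower. The median was 0.38 against -0.01, without overlap for 24 chains and 71.7% of all genes. The processed pseudogene share was higher in the NM libraries of both comparisons, and its part in the result was not tested.

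The 2 comparisons share no library with each other, but both used the estimate of the spread from all 8 libraries. In both, 11 chains were called, each in the same direction, 73.3% of the 15 and 78.6% of the 14. The same overlap over all tested genes was not counted. Col2a1 was 2.45-fold higher in control than in NM-DMSO (1.29, SE 0.09, adjusted p = 0.00023) and 1.88-fold higher in Brd than in NM-Brdi (0.91, SE 0.09, adjusted p = 0.00115). Col12a1 was 2.22-fold and 2.30-fold higher (adjusted p = 0.00546 and 0.00536). Col8a1 was 2.25-fold and 1.83-fold higher (adjusted p = 0.00106 and 0.00452), and Col8a2 1.60-fold and 1.52-fold (adjusted p = 0.01 and 0.0175). Among fibrillar chains Col11a1 was 1.69-fold and 2.15-fold higher (adjusted p = 0.00394 and 0.00103), Col5a1 1.57-fold and 1.98-fold (adjusted p = 0.00428 and 0.00093) and Col27a1 1.39-fold and 2.25-fold (adjusted p = 0.035 and 0.00164). Col18a1 was 2.7-fold and 1.66-fold higher (adjusted p = 0.00137 and 0.0241), Col4a2 1.33-fold and 1.62-fold (adjusted p = 0.0285 and 0.00537) and Col6a1 1.61-fold and 1.27-fold (adjusted p = 0.00308 and 0.0485). The 1 chain lower in both was Col23a1, at -3.65 (SE 0.51, adjusted p = 0.00374) and -2.02 (SE 0.44, adjusted p = 0.027). It had 3 and 2 counts in control and 8 and 4 in Brd, against 32 and 45 in NM-DMSO and 36 and 39 in NM-Brdi. Its fitted fold changes thus rest on few counts in control and Brd.

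The other calls were made in 1 of these comparisons. In control against NM-DMSO Col6a2 (0.84, adjusted p = 0.00169), Col4a5 (0.56, adjusted p = 0.00729) and Col17a1 (1.36, adjusted p = 0.0193) were higher and Col15a1 lower (-1.57, adjusted p = 0.00945). In Brd against NM-Brdi Col4a1 (0.74, adjusted p = 0.00373), Col1a1 (0.57, adjusted p = 0.0158) and Col1a2 (0.57, adjusted p = 0.0472) were higher. Col1a1 and Col1a2 were at 0.13 and 0.02 in control against NM-DMSO (adjusted p = 0.359 and 0.919). Col3a1 was called in neither (-0.30, adjusted p = 0.212 and 0.20, adjusted p = 0.493). In the 8 fits that each leave out 1 library, 8 of the 43 calls of all comparisons stayed. These were Col2a1, Col5a1, Col11a1 and Col27a1 in Brd against NM-Brdi, and Col2a1, Col6a2, Col8a1 and Col18a1 in control against NM-DMSO. Without a library of the comparison itself, 4 to 6 chains were called in Brd against NM-Brdi when it was a Brd or NM-Brdi library, 6 and 5 in control against NM-DMSO when it was a control library, and 19 and 23 when it was an NM-DMSO library. The calls over all genes were then 396 to 467, 556 and 562, and 6060 and 11265.

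**Figure D5:**
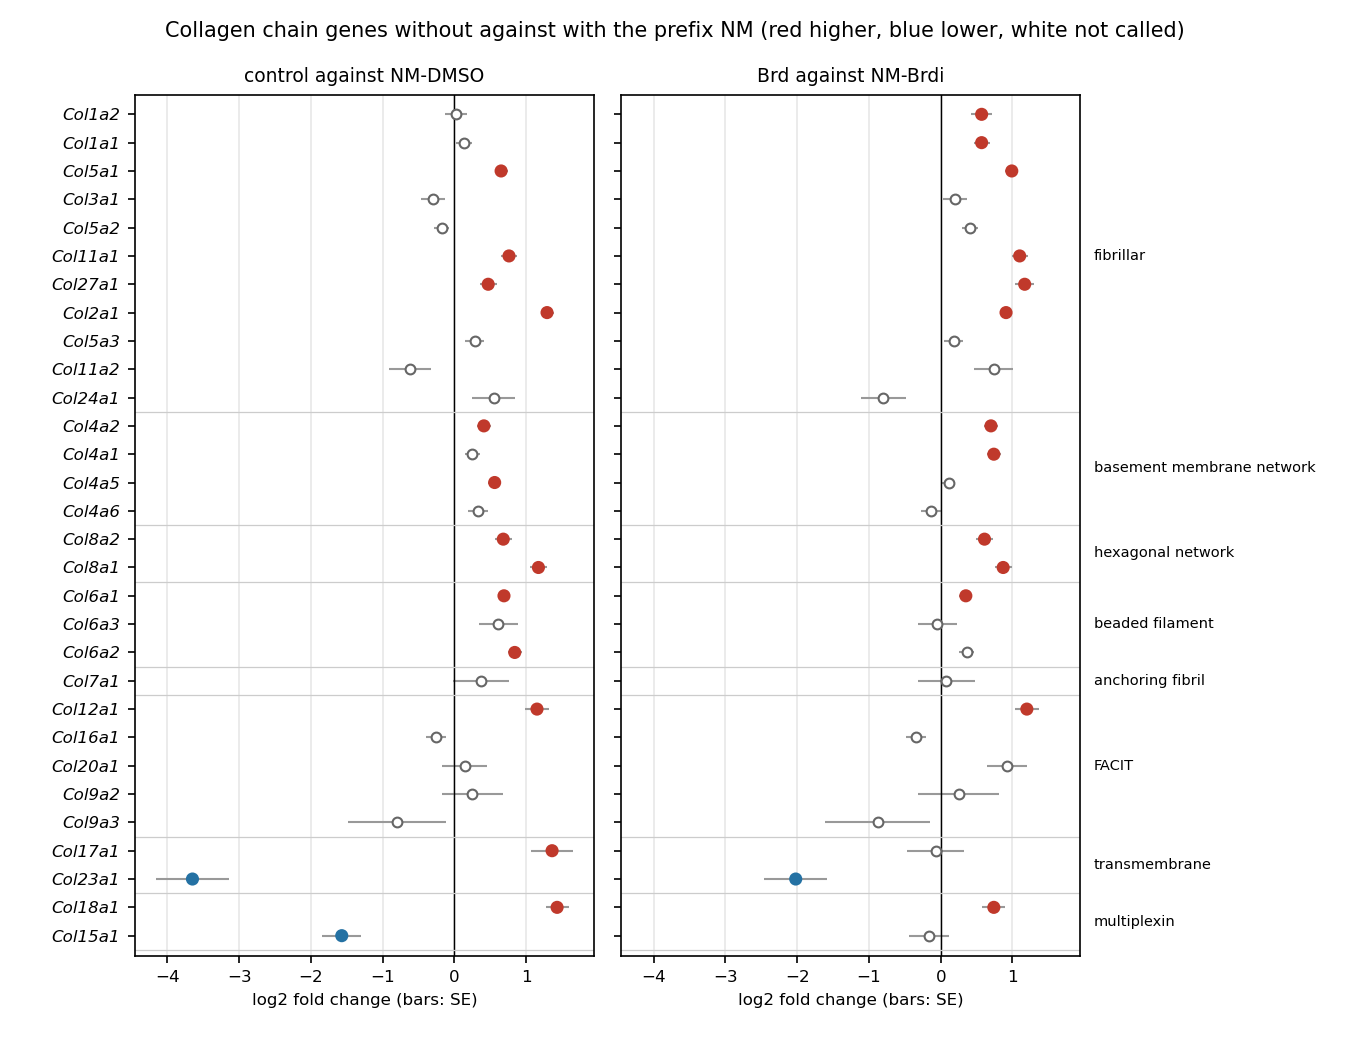
Log2 fold change (x axis, both panels on the same scale) of the 30 tested chains in control against NM-DMSO and Brd against NM-Brdi. Points are fitted values from 2 libraries a group and bars the SE, with red points called higher without the prefix, blue points called lower and white points not called. Col2a1, Col8a1 and Col12a1 are red in both panels and Col23a1 is blue in both.

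Genes that make and process collagen were read from a list of 32, of which 28 were tested. In Brd against control 4 were called higher and 1 lower, where 3.13% and 3.45% of all genes were. Plod2, the lysyl hydroxylase of collagen telopeptides, was at 380 and 359 CPM in Brd and 181 and 182 CPM in control (1.03, SE 0.11, adjusted p = 0.00332). Loxl1, a lysyl oxidase that cross-links elastin, was at 1.29 (adjusted p = 0.00412) and Adamts2, which removes the amino-terminal propeptide of procollagens, at 0.77 (adjusted p = 0.0107). Pcolce, which enhances removal of the carboxy-terminal propeptide, fell from 352 and 356 CPM in control to 174 and 184 CPM in Brd (-0.98, SE 0.12, adjusted p = 0.00573). In NM-Brdi against NM-DMSO edgeR called 0 of the 28, and DESeq2 called 1 higher and 3 lower. At an unadjusted p under 0.05 by edgeR there were 13 of the 28 and 3684 of the 17038 tested genes. Without the prefix, 10 of the 28 were higher in control than in NM-DMSO and 11 in Brd than in NM-Brdi, and 0 were lower in either by edgeR, where DESeq2 called 1 and 0 lower. Of all genes 12% and 6.73% were higher in these comparisons. Lox, the main lysyl oxidase of collagen, had the smallest adjusted p of the list in both, with 2547 and 2576 CPM in control, 2951 and 2833 CPM in Brd, 967 and 1266 CPM in NM-DMSO, and 812 and 882 CPM in NM-Brdi (1.20, adjusted p = 0.00178 and 1.77, adjusted p = 0.000402).

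Of 10 collagen receptors 8 were tested. In Brd, Itga11, the integrin chain that binds collagen I, rose from 113 and 112 CPM in control to 254 and 246 CPM (1.16, SE 0.12, adjusted p = 0.00283). Mrc2, an endocytic receptor that takes up collagen fragments, rose by 1.04 (adjusted p = 0.003). Itga10, the collagen II binding chain of chondrocytes, had 152 and 162 CPM in control, 68.6 and 70.5 CPM in Brd, 43.6 and 35.6 CPM in NM-DMSO, and 5.48 and 9.37 CPM in NM-Brdi. It was lower in both pairs (-1.17, adjusted p = 0.0193 and -2.42, adjusted p = 0.00763), and Ddr1, a receptor kinase for collagen, was higher in NM-Brdi than in NM-DMSO (0.71, adjusted p = 0.0328). Over the whole list 2 were higher and 1 lower in Brd against control, 1 and 1 in NM-Brdi against NM-DMSO, 4 and 0 in control against NM-DMSO, and 6 and 0 in Brd against NM-Brdi. In that order, 3.13%, 0.816%, 12% and 6.73% of all genes were called higher and 3.45%, 1.05%, 11.5% and 3.77% lower. DESeq2 called 0 lower in the last 2 comparisons as well. In the interaction edgeR called 0 genes of either list. At an unadjusted p under 0.05 there were 5 and 3, where 1580 of the 17038 tested genes were. DESeq2 called 1 higher and 1 lower of the first list and 2 higher and 0 lower of the second.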

How the data were processed

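RNA sequencing counts of 8 libraries were analysed. The deposited table holds raw read counts per gene, in whole numbers. The submitters' processing notes name the tools STAR 2.7.10a, featureCounts 2.0.3, Trimmomatic 0.39 and FastQC 0.11.9, and the builds GRCm38 and GRCh38. RNA was extracted with Trizol, and the labels' protocols name poly(A) enrichment and ribosomal depletion without saying which was used. Annotation, strand and handling of multi-mapped reads: not given in the sources used here. Exons of Col4a3, Col5a1, Col9a3 and Col10a1 overlap genes with counts of their own, and those of Col4a1 and Col4a2 overlap each other. Exons of Col3a1, Col4a2, Col6a4, Col7a1, Col15a1 and Col20a1 overlap genes that are not in the table. Reads of these stretches could have been assigned to either gene.

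Genes were filtered with filterByExpr (17038 kept), scaled with TMM factors and tested in edgeR 4.0.16 under R 4.3.3 with glmQLFit and glmQLFTest, all 8 libraries sharing 1 fit with a term for each group. P-values were adjusted by Benjamini-Hochberg over the 17038 genes, and the SE comes from the quasi-likelihood F statistic. The biological coefficient of variation was 0.148. The code was tested on simulated data. Alternatives were RLE factors, DESeq2 1.42.0, no filter, a replicate block, the libraries of a comparison alone, and leaving out each library.

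Every chain called in a comparison, and Col1a1, Col1a2, Col2a1, Col3a1, Col4a1, Col4a2, Col5a1, Col5a2, Col6a1, Col6a2, Col6a3 and Col10a1 whatever their result, were described in every library, and up to 4 called genes per pathway list, by smallest p. The members and lists were chosen with earlier results of these data known. Gene positions, lengths and overlaps are those of GENCODE M21 on GRCm38, which matched 96.9% of the symbols and all 43 chains. Upstream sequences are from RefSeq.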

Additional observations from a re-analysis of the deposited data

How the results depend on the processing

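With RLE factors no count of called chains or genes moved by over 1.5 times (2 chains in NM-Brdi against NM-DMSO). In the order Brd against control, then NM-Brdi against NM-DMSO, interaction, control against NM-DMSO and Brd against NM-Brdi, the fit of record called 1121, 318, 7, 3988 and 1789 genes. Without a filter on low counts it was 1848, 2453, 608, 6274 and 3198 genes, with 12 chains in NM-Brdi against NM-DMSO and 5 in the interaction. With a replicate block 9, 2, 0, 15 and 12 chains were called, and 188 genes in NM-Brdi against NM-DMSO. The block ended the calls of Col5a1 (adjusted p = 0.073), Col8a2 (0.067) and Col20a1 (0.0787) in Brd against control, Col16a1 (0.0695) in NM-Brdi against NM-DMSO, and Col1a2 (0.0654) and Col6a1 (0.0692) in Brd against NM-Brdi. It made a call of Col6a3 (0.0403) in Brd against control. The labels do not say whether the replicate numbers pair the libraries. To look at this, the mean log level of each group was subtracted from its libraries. The deviations of same-numbered libraries then correlated at -0.00286 to 0.152 over 6 pairs of groups, highest for NM-Brdi with NM-DMSO. With 2 libraries a group, these values cannot show whether there was a pairing. DESeq2 called 7 chains and 819 genes in NM-Brdi against NM-DMSO and 248 genes in the interaction. The libraries of a comparison alone gave 21 chains and 6413 genes in Brd against control. They gave 0 chains and 0 genes by edgeR in NM-Brdi against NM-DMSO (8 and 1419 at an unadjusted p under 0.05), 4 chains and 371 genes in control against NM-DMSO, and 7215 genes in Brd against NM-Brdi. Over the 8 fits without 1 library the chains ranged from 0 to 20, 0 to 20, 0 to 22, 5 to 23 and 4 to 22, in the same order. The genes ranged from 36 to 5539, 8 to 9577, 0 to 7458, 556 to 11265 and 396 to 7691. Such a fit assumes that a lone library varies like the other groups. The most calls came without an NM-DMSO library, in fits that take no spread from that group. Of 120 chain results, the 43 called ones kept their sign under every alternative named here, while 13 uncalled ones changed sign under at least 1. Without NM-DMSO replicate 2, Col12a1 in the interaction (-0.26; 0.29 without replicate 1) and Col1a2 in control against NM-DMSO (-0.18; 0.25 without replicate 1) gained calls opposite to their sign. The cause of these changes was not tested.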
